A study of Mus musculus with 3 samples.

Results

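The complement genes C3, C4b, C7, C1s1, C1ra, C2, Cfb and Serping1 were followed by symbol through the mesenchymal cell classes of mouse sciatic nerve, 8 genes of the 53380 features in the count matrices. Complement is a cascade of plasma and tissue proteins. In its classical arm the protease C1r activates the protease C1s, which cleaves C4 and C2. Fragments of C4 and C2 form an enzyme that cleaves C3, and in the alternative arm factor B pairs with C3 fragments to do the same. Cleaved C3 tags cells and debris for phagocytes and leads on to the terminal proteins, C7 among them, which insert into membranes, while the C1 inhibitor encoded by Serping1 blocks C1r and C1s. In nerve, complement is known for its part in the clearance of myelin after injury, and fibroblasts of many tissues make several of these proteins locally.

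Cells came from mice in which the R26-TomatoLSL reporter was under the control of Pdgfrb-cre/ERT2, a Cre recombinase that acts after tamoxifen, and TdTomato-positive cells were sorted. The 3 groups were the intact sciatic nerve, the bridge region at 7 days post injury and the bridge region at 21 days, with 1 library each. All groups carried both alleles, nerves were pooled, and no age is given here for the animals. Myelin-removal beads were used on the intact nerve sample, so the bead step and the injury cannot be told apart. Pdgfrb also marks pericytes and vascular smooth muscle, so the label is not confined to fibroblasts. Levels are UMIs (counted RNA molecules) summed over a class and given as CPM, that is scaled to the summed UMIs of the class, and all intervals are 95% and cover counting error only. No difference has a replicate check and no test was made; a ratio was read as a difference when it was 2-fold or more and the gene reached 10 CPM in the higher pool.

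The authors' metadata placed 1343 cells of the intact library, 1780 of day 7 and 4111 of day 21 in 6 classes. The named layers were MES_ENDO (endoneurial, 663, 255 and 487 cells in that order), MES_EPI (epineurial, 540, 676 and 1027) and MES_PERI (perineurial, 116, 241 and 2069), and each of these had at least 7 of its 8 or 9 of its 10 layer markers highest in its own class in every library. Median depth was 5667 UMIs a cell in the intact library, 19316 at day 7 and 7442 at day 21. Shares of cells with a UMI are therefore given after each cell was thinned to 2000 UMIs. The libraries shared 41, 41 and 58 cell barcodes in pairs, and 5 annotated barcodes occurred in more than 1 library.

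The 8 genes lie on 4 chromosomes of mm10. C4b (chr17:34728380-34743882), Cfb (chr17:34856374-34862518) and C2 (chr17:34862604-34898265) are neighbours on the minus strand of chromosome 17, and C3 (chr17:57203970-57228136) is on the same strand farther along it. C1ra (chr6:124512405-124523443, plus strand) and C1s1 (chr6:124530345-124542359, minus strand) stand side by side on chromosome 6, C7 lies at chr15:4988762-5063740 and Serping1 at chr2:84765387-84775444, both on the minus strand. Promoter sequences in RefSeq (GRCm38.p6) were matched for 4 of the 8 genes. Those of C3, C7 and C1s1 are shown because their levels moved differently between libraries. Each is the 250 bases before the annotated start, 5′ to 3′ on the gene's strand, at chr17:57228137-57228386, chr15:5063774-5064023 and chr6:124542360-124542609, with matches to the searched motifs in capitals.
C3: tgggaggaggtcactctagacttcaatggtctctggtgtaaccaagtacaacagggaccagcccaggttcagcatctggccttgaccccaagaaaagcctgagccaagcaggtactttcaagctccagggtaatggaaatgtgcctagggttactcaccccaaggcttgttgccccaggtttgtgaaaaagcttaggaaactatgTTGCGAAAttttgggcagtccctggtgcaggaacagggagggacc
C7: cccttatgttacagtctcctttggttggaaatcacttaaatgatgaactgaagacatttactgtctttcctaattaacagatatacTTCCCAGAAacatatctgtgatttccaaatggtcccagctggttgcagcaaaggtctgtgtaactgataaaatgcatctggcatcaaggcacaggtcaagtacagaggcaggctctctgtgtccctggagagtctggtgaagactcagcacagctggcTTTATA
C1s1: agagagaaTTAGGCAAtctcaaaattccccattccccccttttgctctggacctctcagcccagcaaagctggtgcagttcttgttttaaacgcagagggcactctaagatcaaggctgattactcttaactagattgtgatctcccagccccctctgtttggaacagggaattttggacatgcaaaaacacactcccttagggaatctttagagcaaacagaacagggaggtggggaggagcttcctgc
The motifs were searched on both strands. The capitals in C3 mark a match to the C/EBP letters TTGCNNAA, at bases -45 to -38 from the start, and those in C1s1 a match to the same letters on the other strand at -242 to -235. In C7 the first capitals match the GAS letters TTCNNNGAA, the site class bound by STAT factors, at -164 to -156, and the last ones are TATAAA read on the other strand at -6 to -1. Of 32851 promoters of this length, 9.56% held TTGCNNAA, 7.02% TTCNNNGAA and 12.4% TATAAA, so such matches are common. The interferon response element (ISRE) and the NF-kB site matched in none of these 3 stretches, against 2.98% and 7.25% of all promoters. C1s1 has a further annotated start. The 250 bases before that start and those of C1ra, not shown here, held no match to any searched motif.

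Most of the 8 genes were highest in the epineurial class, and most were lower there at day 7. In the intact library 7 of the 8 genes had their highest level of the 3 layers in epineurial cells, all but C2, where 23.6% of all genes did. At day 21 it was the same 7 genes, against 25.0% of all genes. At day 7 it was all 7 genes that reached 10 CPM in some layer, against 30.5%, with C2 equal in perineurial cells within counting error and C7 below 10 CPM. C3, C4b, C1ra and Cfb were at least 2-fold above both other layers in all 3 libraries, and C7 in the intact and day 21 libraries, where 4.6%, 5.95% and 4.85% of all genes were that high in epineurial cells at intact, day 7 and day 21.

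**Figure D1:**
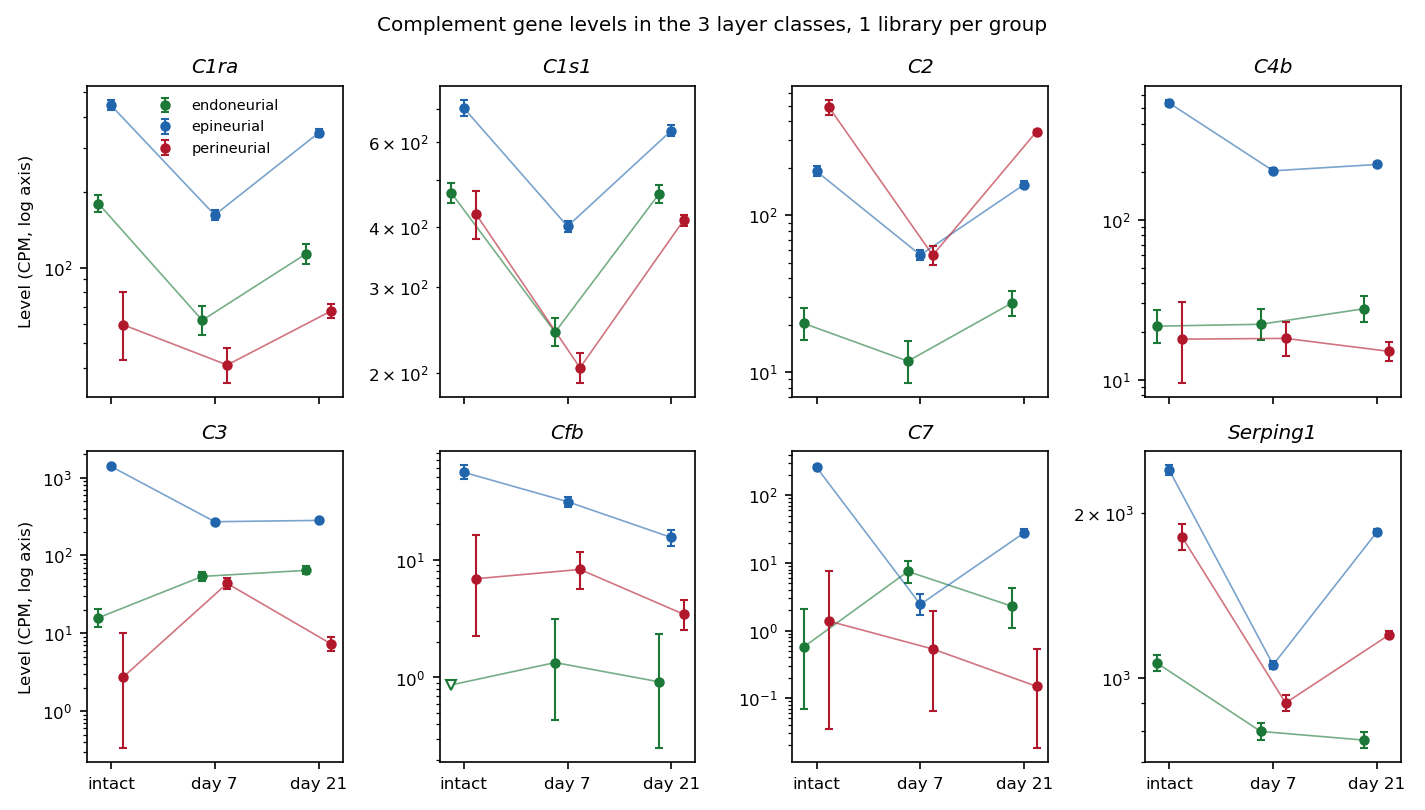
Level of each complement gene in the 3 layer classes (y axis, CPM on a log axis) in the intact, day 7 and day 21 libraries (x axis). Points are sums over a class with exact Poisson 95% intervals, and an open triangle marks 0 counts, drawn at the level of 3 counts. Epineurial C3 dropped from 1392 CPM to 271 and 282, and perineurial C2 dipped from 488 to 55.7 before 342.

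The C1 proteases had their lowest level at day 7 in all 3 layers, past 2-fold for C1ra in epineurial and endoneurial cells and for C1s1 in perineurial cells. C1ra, which encodes C1r, was at 443.8 CPM in intact epineurial cells, 162.3 at day 7 and 344.3 at day 21. It was 2.74-fold lower at day 7 than in the intact library (95% interval 2.57 to 2.91) and 2.12-fold higher at day 21 than at day 7 (2.01 to 2.24). Endoneurial C1ra stood at 180.1, 61.8 and 113.8 CPM in the same order, 2.91-fold lower at day 7 (2.50 to 3.40) and 1.58-fold lower at day 21 (1.40 to 1.79) than in intact nerve, and perineurial C1ra at 59.3, 41.05 and 67.3. The layers kept 1 order in every library, epineurial above endoneurial above perineurial, with no interval of neighbouring layers reaching equality.

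C1s1, which encodes C1s, was spread more evenly over the layers. Epineurial cells held 704 CPM in the intact library, 401 at day 7 and 632.5 at day 21, endoneurial cells 470.3, 242.5 and 467.4, and perineurial cells 424.7, 204.7 and 413.3. All 3 layers were lowest at day 7, by 1.76-fold in epineurial cells (1.68 to 1.84), 1.94-fold in endoneurial cells (1.79 to 2.11) and 2.07-fold in perineurial cells (1.81 to 2.37) against intact. At day 21 the ratio to intact was 0.994 in endoneurial cells (0.931 to 1.06) and 0.973 in perineurial cells (0.868 to 1.09). In the intact library endoneurial and perineurial levels did not differ beyond counting error, at a ratio of 1.11 (0.980 to 1.25).

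C2, the protease that joins C4 in the classical enzyme, was the 1 member led by the perineurial class. Perineurial C2 was at 488.1 CPM in the intact library, 55.7 at day 7 and 341.8 at day 21. Epineurial C2 was at 190.7, 55.9 and 157.1 CPM and endoneurial C2 at 20.5, 11.8 and 27.6. The perineurial level was 8.76-fold lower at day 7 than in intact nerve (7.36 to 10.45) and 6.14-fold higher at day 21 than at day 7 (5.34 to 7.08), which left it 1.43-fold below intact (1.28 to 1.59). Perineurial C2 exceeded epineurial C2 by 2.56-fold in the intact library (2.25 to 2.91) and 2.18-fold at day 21 (2.06 to 2.31), where 12.2% and 5.84% of all genes were at least 2-fold higher in perineurial cells than in both other layers. At day 7 these layers could not be told apart, at a ratio of 1.00 (0.860 to 1.18).

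The share of perineurial cells with a C2 UMI followed the level. It was 52.6% of 116 cells in the intact library (43.1 to 61.9, exact binomial interval), 6.64% of 241 at day 7 (3.84 to 10.6) and 45.9% of 2069 at day 21 (43.8 to 48.1). Without thinning the shares were 79.3%, 30.7% and 74.9%. Unclassed barcodes with Schwann cell markers were taken for comparison, and whether their C2 is free RNA or their own was not tested. They showed C2 in 0.548% at day 7 and 4.79% at day 21. Their median depths were 12065 and 5271.5 UMIs, against 15443 and 5829 in the perineurial class. The endoneurial share at day 21, 4.72%, was not above the Schwann-marked one. Endothelial-marked barcodes at day 21 had C2 at 7.02 CPM (3.03 to 13.8) and Schwann-marked ones at 40.7 (37.0 to 44.7), so the endoneurial 27.6 CPM (22.9 to 33.0) lay between these groups. In the intact library smooth muscle-marked barcodes had 4.84 CPM of C2 against 20.5 in endoneurial cells, and at day 7 Schwann-marked ones had 5.03 (3.34 to 7.26) against 11.8 (8.56 to 15.8). The part of free RNA in the low endoneurial C2 was not tested beyond these values.

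C4b, the source of C4, was an epineurial gene in every library. Its level there was 537 CPM in intact nerve, 202.5 at day 7 and 221.8 at day 21, lower than intact by 2.65-fold (2.50 to 2.81) and 2.42-fold (2.28 to 2.57). Endoneurial C4b lay between 21.6 and 27.8 CPM and perineurial C4b between 15.0 and 18.1 over the libraries, and the barcode groups outside the classes straddled these levels. Schwann-marked barcodes had 29.6 and 30.5 CPM at days 7 and 21, endothelial-marked ones 8.38 (3.37 to 17.3) and 2.63 (0.543 to 7.69), and myeloid-marked ones 137 and 89.5. The part of free RNA in C4b outside the epineurial class was not tested. At day 21 epineurial C4b was 1.10-fold above day 7 (1.04 to 1.16), under the 2-fold limit.

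C3, the central protein of the cascade, was at 1392 CPM in intact epineurial cells, 271 at day 7 and 282 at day 21. It was 5.13-fold lower at day 7 (4.92 to 5.35) and 4.94-fold lower at day 21 (4.72 to 5.17) than in the intact library. Between days 7 and 21 it did not differ beyond counting error, at a ratio of 1.04 (0.990 to 1.09), so C3 stayed low while C1ra, C2 and C7 were more than 2-fold higher at day 21 than at day 7. In the intact library the epineurial level exceeded the endoneurial one by 87.8-fold (67.4 to 117), at day 7 by 5.04-fold (4.37 to 5.84) and at day 21 by 4.38-fold (3.87 to 4.97).

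C3 in the other layers went the opposite way. Endoneurial C3 was at 15.9 CPM in intact nerve, 53.8 at day 7 and 64.3 at day 21, higher than intact by 3.39-fold (2.51 to 4.66) and 4.06-fold (3.03 to 5.52). Perineurial C3 was at 2.76, 43.7 and 7.33 CPM, on 2, 164 and 98 counts, so its 15.85-fold ratio at day 7 (4.32 to 132) rests on 2 intact counts. From day 7 to day 21 perineurial C3 was 5.97-fold lower (4.62 to 7.74).

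A few cells held 50% of this C3, also in intact endoneurial cells, where it was 6 of 663 cells for 55 counts. In endoneurial cells 9 of 255 cells held 50% of the 201 counts at day 7, and 6 of 487 cells held 50% of the 280 counts at day 21. In perineurial cells it was 4 of 241 cells for 164 counts at day 7 and 8 of 2069 cells for 98 counts at day 21. The summed epineurial markers in perineurial cells at day 7 were at 511 CPM in the 29 cells with C3 and 195 in the 212 without, against 4325 in the epineurial class. Endoneurial cells with C3 had 660 CPM of these markers at day 7 and those without had 452, and at day 21 the values were 1042 and 1072. With cells holding 3 or more epineurial markers left out, an alternative chosen after seeing the data, endoneurial C3 was 3.47-fold higher at day 7 (2.25 to 5.50) and 1.95-fold higher at day 21 (1.21 to 3.21), the second under 2-fold. This left out 149 of 663 endoneurial cells in intact nerve, 80 of 255 at day 7 and 186 of 487 at day 21. Median depths of the endoneurial class were 4779, 15143 and 8649 UMIs, and the effect of depth on this choice of cells was not tested. The endoneurial level at day 21 was then 21.4 CPM on 53 counts, in place of 64.3 on 280. Perineurial C3 without such cells was at 31.3 CPM on 86 counts at day 7 and 6.18 on 64 at day 21, against 0 counts in intact nerve. Schwann-marked barcodes had 16.5 CPM of C3 at day 7 and 5.80 at day 21, and the part of free RNA and of mixed cells in the endoneurial and perineurial values was not tested beyond these measurements.

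Epineurial C3 was also found in fewer cells after injury. A C3 UMI was seen in 60.7% of intact epineurial cells, 21.0% at day 7 and 16.4% at day 21, and without thinning in 72.0%, 46.3% and 26.7%. The comparison share was 1.10% in intact barcodes with vascular smooth muscle markers (median 5739.5 UMIs against 6936.5 in epineurial cells), and 1.92% and 0.465% in Schwann-marked barcodes at days 7 and 21, with epineurial medians of 19883.5 and 9666 UMIs. The 10% of epineurial cells richest in C3 held 42.0% of its thinned UMIs in intact nerve, 78.6% at day 7 and 87.1% at day 21. For Serping1 the richest 10% held 25.8%, 31.3% and 25.2%. Serping1 was seen in 93.9% of epineurial cells in intact nerve, 78.6% at day 7 and 92.3% at day 21. The part held by the richest cells also moves with the level of a gene, so it is given beside the levels and not in place of them.

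**Figure D2:**
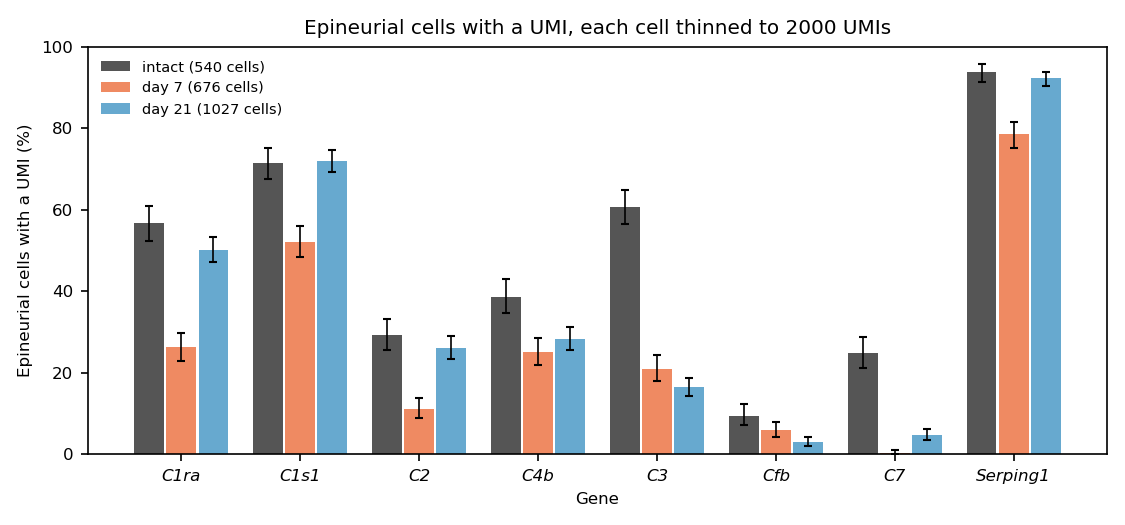
Share of epineurial cells with a UMI of each complement gene (y axis, percent) after thinning each cell to 2000 UMIs, in 540 intact, 676 day 7 and 1027 day 21 cells. Error bars are exact binomial 95% intervals. C1ra, C1s1, C2 and Serping1 were lowest at day 7, whereas C3 and Cfb were lowest at day 21.

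Cells with C4b more often had C3. In the intact library 79.9% of epineurial cells with a C4b UMI had C3, against 48.6% of those without, at day 7 it was 39.6% against 14.8%, and at day 21 30.9% against 10.6%. For C2 the order was not the same in every library. C3 was seen in 53.8% of cells with C2 and 63.6% of those without in intact nerve. At day 7 it was seen in 28.0% and 20.1%, and at day 21 in 7.84% and 19.4%. The day 7 order rests on 21 of 75 cells with C2, and no interval was computed for it. These shares come from cells of 1 library each and are descriptions.

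Cfb, which encodes factor B of the alternative arm, was seen in 9.44% of epineurial cells in intact nerve, 5.92% at day 7 and 2.92% at day 21. Its epineurial level was 55.2 CPM in intact nerve, 31.1 at day 7 and 15.4 at day 21, with 218, 421 and 159 counts. It was 1.78-fold below intact at day 7 (1.50 to 2.10) and 3.58-fold below at day 21 (2.90 to 4.42), so unlike the C1 proteases it was lowest at the later time. Endoneurial Cfb had 0 counts in intact nerve, where the epineurial level was at least 63.9-fold higher than 3 counts would give, and 5 and 4 counts in the bridge. Perineurial Cfb was at 6.89, 8.26 and 3.44 CPM. Of the exonic bases of Cfb, 79.5% are shared with the annotated gene Gm20547 on the same strand, as are 42.8% of those of C2. Gm20547 had 0 counts in annotated cells of all 3 libraries, and reads common to overlapping genes may have been left uncounted, so both genes' levels are uncertain to an extent that was not tested.

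C7, a terminal component, had the largest ratio of the 8 genes in epineurial cells. Its level was 260.6 CPM in the intact library, on 1029 counts, 2.44 at day 7, on 33, and 27.96 at day 21, on 288. It was 107-fold lower at day 7 (75.7 to 156) and 9.32-fold lower at day 21 (8.17 to 10.66) than in intact nerve, and 11.5-fold higher at day 21 than at day 7 (7.99 to 17.0). A C7 UMI was seen in 24.8% of intact epineurial cells, 0.296% at day 7, which is 2 of 676 cells, and 4.67% at day 21. In Schwann-marked barcodes at day 7 the share was 0.274%, on 1 UMI in all, and the level 0.179 CPM (0.00454 to 1.00), below the epineurial 2.44 (1.68 to 3.42). Without thinning these were 37.4%, 3.25% and 13.0%. Endoneurial C7 had 2, 28 and 10 counts (0.576, 7.49 and 2.30 CPM), which made the endoneurial level 3.08-fold above the epineurial one at day 7 (1.79 to 5.25), and perineurial C7 had 1, 2 and 2 counts.

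Serping1, the C1 inhibitor, was found in most cells of every layer. Its epineurial level was 2390 CPM in intact nerve, 1055 at day 7 and 1844 at day 21, its perineurial level 1809, 898.6 and 1198, and its endoneurial level 1063, 797.3 and 768.5. Day 7 was below intact by 2.27-fold in epineurial cells (2.21 to 2.33), 2.01-fold in perineurial cells (1.89 to 2.15) and 1.33-fold in endoneurial cells (1.27 to 1.40). The order of the layers, epineurial above perineurial above endoneurial, was the same in all 3 libraries, and its closest neighbours were perineurial and endoneurial cells at day 7, at a ratio of 1.13 (1.07 to 1.18). The perineurial differences of Serping1 and C1s1 at day 7 fell under 2-fold, to log2 ratios of -0.87 and -0.90, under some of the other settings.

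**Figure D3:**
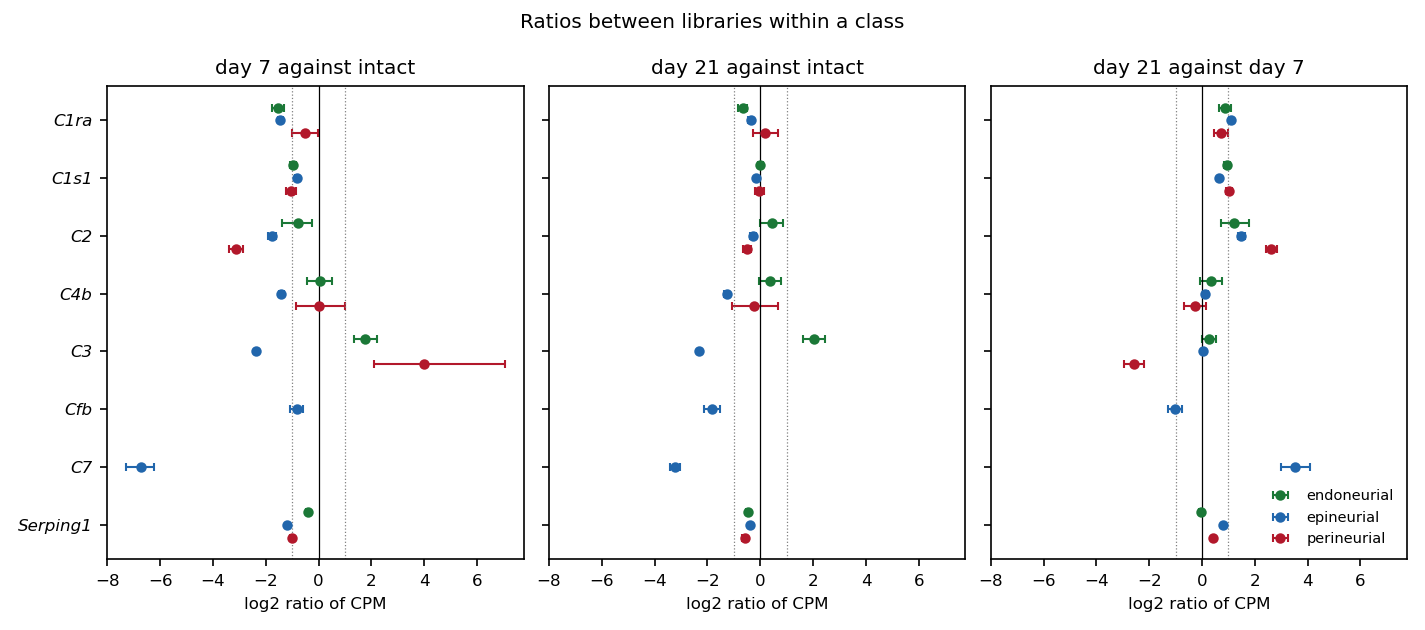
Log2 ratios of CPM between libraries within each layer (x axis) for the 8 genes, for genes reaching 10 CPM with counts in both pools. Points are plain ratios with exact 95% intervals and dotted lines mark 2-fold. Epineurial points lie left of 0 at day 7 against intact for all 8 genes, whereas endoneurial and perineurial C3 lie to the right.

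Counted together, 6 of the 8 genes were at least 2-fold lower in epineurial cells at day 7 than in intact nerve and none was higher, where 8.16% of 8293 genes were lower and 5.92% higher. Their median log2 ratio was -1.43, against -0.04 over all genes. In perineurial cells 3 of 6 genes that reached 10 CPM were lower and C3 was higher, against 18.7% and 11.4% of all genes, with a median of -0.78 against -0.14. In endoneurial cells C1ra was lower and C3 higher of 6, against 9.68% and 8.53%, with a median of -0.60 against 0.03.

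At day 21 against intact, C3, C4b, C7 and Cfb, 4 of 8, were at least 2-fold lower in epineurial cells and none was higher, against 3.68% and 3.58% of all genes, with a median of -0.82 against 0.00. C1ra, C1s1, C2 and Serping1 lay within 1.29-fold, 1.11-fold, 1.21-fold and 1.30-fold of intact. No gene of 5 in perineurial cells passed 2-fold, against 10.1% lower and 6.99% higher, and of 6 in endoneurial cells C3 was higher and none lower, against 4.19% and 5.1%. From day 7 to day 21, C1ra, C2 and C7 were higher and Cfb lower in epineurial cells (3.62% and 2.14% of all genes), C1s1 and C2 higher and C3 lower in perineurial cells (7.32% and 4.94%), and C2 higher in endoneurial cells with none lower (4.28% and 4.17%). Under some of the other settings C1ra and Cfb in epineurial cells (log2 ratios of 0.98 and -0.87), C1s1 in perineurial cells (0.89) and C2 in endoneurial cells (0.94) fell under 2-fold in this last comparison. These comparisons share libraries, so their ratios are not independent of each other.

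The 2 bridge libraries also held classes with few intact cells, 16 in MES_DIFF, 7 in MES_DIV and 1 in MES_EPI-diff. In MES_DIFF, 308 cells at day 7 and 387 at day 21, 5 of 6 genes were at least 2-fold higher at day 21 and none was lower, against 9.04% and 4.76% of all genes, with a median log2 ratio of 1.72 against 0.10. C2 was at 12.6 CPM at day 7 and 127.8 at day 21, 10.1-fold higher (8.17 to 12.7), and was seen in 2.60% and 22.0% of cells. Schwann-marked barcodes also had more C2 at day 21, with 5.03 and 40.7 CPM and shares of 0.548% and 4.79%. C1s1 went from 111 to 428 CPM, C1ra from 28.7 to 114, and Serping1 from 349 to 872. C4b went from 12.0 to 34.0 CPM, against Schwann-marked levels of 29.6 CPM at day 7 and 30.5 at day 21. C3 was at 14.0 CPM at day 7 (11.5 to 16.8), against 16.5 in Schwann-marked barcodes (13.3 to 20.2), and at 11.25 at day 21 (8.17 to 15.1), against 5.80 (4.46 to 7.42). C3 in this class turned to a log2 ratio of 1.16 from -0.30 when the deepest 5% of cells were left out.

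In MES_DIV, 206 and 119 cells, C2 was at 19.5 CPM at day 7 and 77.6 at day 21, 3.97-fold higher (3.02 to 5.25), and C3 was at 19.5 and 6.07 CPM, 3.21-fold lower (1.63 to 7.23) on 101 and 9 counts. C2 was the 1 gene of 6 that was higher, against 7.51% of all genes, and C3 the 1 that was lower, against 3.77%. Summed Schwann cell markers in this class were at 630 CPM at day 7 and 2683 at day 21, and myeloid markers at 51.2 and 171. Neutrophil and mast cell markers were at 0.966 and 907, and at day 21 S100a8, S100a9 and Retnlg were not seen. The 907 CPM thus came from Cpa3, Mcpt4 and Kit. Pericyte markers in MES_DIV were at 699 CPM at day 7 and 594 at day 21, and smooth muscle markers at 1433 and 285. C2 in Schwann-marked barcodes was at 5.03 and 40.7 CPM at the same times, and in pericyte-marked ones at 41.4 and 65.2. Of the MES_DIV cells, 159 of 206 at day 7 and 97 of 119 at day 21 held 3 or more markers of another cell type. Over the settings the log2 ratio of C2 at day 21 against day 7 ranged from 1.84 to 3.01 in this class. That of C3 ranged from -3.02 to -1.55 and that of C1ra from -0.58 to 0.69. The part of cells of other types in the MES_DIV values was not tested beyond these settings. MES_EPI-diff, with 94 cells at day 7, had the lowest level of C1s1 (91.9 CPM), C2 (9.19 CPM) and Serping1 (165 CPM) among the 14 pools of at least 50 cells. Its C7 was 0 counts, and a count of 0 allows up to 1.53 CPM by the limit of 3 counts.

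The median number of the 8 genes seen in 1 thinned cell was lowest at day 7 in all 3 layers. Epineurial cells had a median of 4 genes in the intact library, 2 at day 7 and 3 at day 21, and 58.1%, 17.3% and 30.4% of them had at least 4. In perineurial cells 7.76%, 2.07% and 3.87% had at least 4. Endoneurial cells had a median of 2, 1 and 2 genes, and 5.88%, 16.9% and 9.24% of them had none. Only their share with at least 4 genes had no dip at day 7, at 1.06%, 1.57% and 2.26%. In MES_DIFF the median was 1 gene at day 7 and 2 at day 21.

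Epineurial cells held 47.2% of the annotated UMIs of intact nerve but 96.9% of those of C3, 94.5% of C4b, 99.7% of C7 and 96.9% of Cfb. At day 7 they held 85.9% of C3, 87.5% of C4b and 82.9% of Cfb, but 45.8% of the 72 UMIs of C7, with 38.9% in endoneurial cells. At day 21 they held 87.1% of C3, 82.4% of C4b, 93.5% of C7 and 71.9% of Cfb. C1s1 was less tied to the class, with 58.0%, 62.5% and 40.6% in the intact, day 7 and day 21 libraries. Of all annotated UMIs the epineurial class held 47.2%, 37.4% and 30.6% in these libraries. For C2 the epineurial share was 63.2%, 61.5% and 23.3% and the perineurial one 29.7%, 17.0% and 66.0%. Perineurial cells held 8.66%, 10.4% and 39.7% of all annotated UMIs and were 8.64%, 13.5% and 50.3% of annotated cells.

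**Figure D4:**
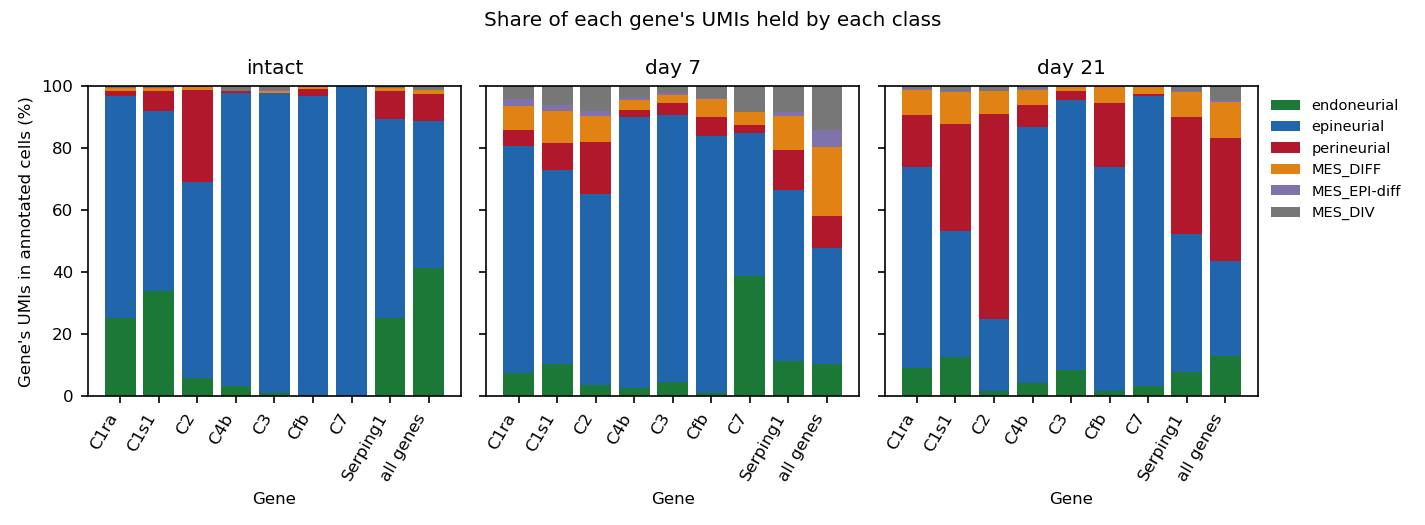
Share of each gene's UMIs in annotated cells (y axis, percent) held by each class, with all genes together in the last bar, in the intact, day 7 and day 21 libraries. Epineurial cells held 96.9% of C3 UMIs in intact nerve and 87.1% at day 21, whereas 66.0% of C2 UMIs at day 21 were in perineurial cells.

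Over all annotated cells, 7 of 8 genes were at least 2-fold lower at day 7 than in intact nerve, against 9.55% of all genes, and 4 of 8 at day 21, against 4.93%. None was higher in either comparison, against 7.58% and 4.9%. From day 7 to day 21, C2 was higher and Cfb lower, 1 of 7 each, against 5.95% and 4.04%. These sums mix the layers in the shares each library had. With 1 class mixture in both libraries 5 of 8 were lower at day 7, since C1s1 and Serping1 came to log2 ratios of -0.88 and -0.96. C2 over all annotated cells was 1.44-fold higher at day 21 than in intact nerve (1.36 to 1.54), a log2 ratio of 0.53, but with the same class mixture in both libraries it was -0.41. A change in level and a change in the makeup of the library cannot be told apart in such sums, and the values within classes are given for that reason.

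Across the 14 pools, levels of C3 and C4b moved together (Pearson r 0.89 of log2 levels), as did C1s1 with C1ra (0.89) and with Serping1 (0.90). C3 and C2 did not, at 0.03. The 3 genes most like each member among 4504 that reached 50 CPM were Gfpt2, Man1a and Krtdap for C3 (r 0.88 to 0.89), Xdh, Lmo2 and Csf1 for C4b (0.95), and Xdh, Lmo2 and Nrip1 for C7 (0.87 to 0.90). For C1ra they were Psap, Sqor and Dpep1 (0.92 to 0.96), for C1s1 Zbtb20, Ctdsp2 and Adamtsl4 (0.93 to 0.96), and for C2 Arhgef10, Ahnak and Kank2 (0.95 to 0.98). For Cfb they were Vegfd, Hspb8 and Fgf18 (0.89 to 0.91), and for Serping1 Selenop, Irak3 and Trip10 (0.93 to 0.95). Pools of 1 library share its depth and its free RNA, so these values are descriptions.

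Of 52 other complement genes listed, 50 were measured, and 9 reached 20 CPM in some pool. All of these 9 but Colec12, a scavenger receptor with a collectin domain, are known as regulators, Vtn, Clu, Cd55, Cd59a and Thbd among them. None of the 7 other components measured, none of the 8 receptors and neither of the 2 other alternative pathway genes did. Mbl1, Mbl2, Fcnb, C8a, C8b, C9, Cfd and Vsig4 were among those with 3 or fewer counts in annotated cells. Cfd encodes factor D, the protease that cleaves factor B, and C9 the pore-forming terminal protein. In the same cells C6 had 1, 12 and 2 counts and Hc, the mouse C5 gene, 1, 57 and 20.

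Vtn encodes vitronectin, which binds the terminal complex. Its epineurial level was 87.9 CPM in intact nerve, 35.0 at day 7 and 305.4 at day 21, 8.73-fold higher at day 21 than at day 7 (7.92 to 9.63) and 3.47-fold above intact (3.11 to 3.89). Perineurial Vtn was at 660, 144 and 346 CPM. Thbd, thrombomodulin, was lower at day 7 in epineurial cells, at 134.5 and 44.0 CPM, and 4.60-fold higher in endoneurial cells, at 22.8 and 104.6 (3.60 to 5.93). Cd59a, which blocks assembly of the terminal pore, was 3.49-fold higher at day 7 in epineurial cells (2.44 to 5.14), at 8.36 CPM in intact nerve and 29.2 at day 7. In epineurial cells 9 other complement genes reached 10 CPM at day 7 or in intact nerve. Of these, 5 were at least 2-fold lower at day 7 (Vtn, Clu and Thbd among them) and 1 higher (Cd59a). Over all genes 8.16% were lower and 5.92% higher. The median log2 ratio of the 9 genes was -1.33, against -0.04 over all genes.

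Sequence shared with near copies limits 3 of the genes. In the last 500 bases of the transcript, 38.1% of the 50-base words of C4b also occur in C4a, 19.1% of those of C1ra in C1rb and 18.0% of those of C1s1 in C1s2. The copies had few counts in annotated cells, 2, 12 and 7 for C4a, 2, 1 and 2 for C1rb, and 13, 19 and 23 for C1s2, in the intact, day 7 and day 21 libraries. Reads that fit both copies may have been left uncounted, and the effect on C4b, C1ra and C1s1 was not tested.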

How the data were processed

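Single-cell RNA-seq of sorted TdTomato-positive cells was used from 3 libraries, 1 per group. The deposited matrices are UMI counts (whole numbers) for each feature in each barcode, written by Cell Ranger 6.1.2 per the file headers. The submitters' processing notes name Cell Ranger 3.0.2 and Seurat 4.0.1 as well. Cell filters, aligner settings and doublet removal are not given in the sources used here. Classes came from the authors' deposited cell metadata, and 7234 of its 7235 cells were found among 14703 barcodes, which left 7469 unclassed barcodes. The members and gene lists were chosen with earlier results of these data known. The 8 members were always named, other complement genes when they reached 20 CPM in a pool of at least 50 cells, and for each member the 3 genes with the highest Pearson r. Itgam is listed under a symbol held by 2 features and C5 is not listed under that symbol, so 50 of 52 other genes were measured. Some of these genes are not reported here by name.

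UMI counts were summed over a class and scaled to the UMIs of that class (CPM). Log2 ratios used 0.5 added counts, and a gene was counted with at least 10 CPM in the higher pool. Levels have exact Poisson 95% intervals, ratios exact conditional binomial ones and shares exact Clopper-Pearson ones. Annotated UMIs totalled 8371421, 36169912 and 33683464 for intact, day 7 and day 21. No doublet caller was run, and the deepest 5% of cells were left out as an alternative. Unclassed barcodes were grouped by at least 4 markers of a type. Gene positions are those of GENCODE M21 for mm10, with the same identifier version for all 8 members. The computation was tested on simulated counts. Python 3.11.15, numpy 2.4.6, scipy 1.17.1, pandas 2.3.3 and matplotlib 3.10.9 were used.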

Additional observations from a re-analysis of the deposited data

Results flagged for a closer look

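C3 moved in opposite directions in different layers, and the difference between layers was not tested, since each group is 1 library. At day 7 against intact nerve the log2 ratio of C3 was 1.75 in endoneurial cells and 3.67 in perineurial cells, the latter on 2 intact counts, and -2.36 in epineurial cells. At day 21 against intact nerve it was 2.01 in endoneurial cells and -2.30 in epineurial cells.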

How the results depend on the processing

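Of 71 ratios of the 8 genes within a class, 32 passed 2-fold, all 32 had the same sign in the 6 other settings of scaling, added count and cell choice, and 26 passed 2-fold in all 6. In the setting added later, endoneurial C3 at day 21 against intact nerve had a log2 ratio of 0.95. The other 6 were C1s1 and Serping1 in perineurial cells and C1ra, Cfb, C2 and C1s1 between days 7 and 21 in epineurial, epineurial, endoneurial and perineurial cells, with smallest log2 ratios of -0.90, -0.87, 0.98, -0.87, 0.94 and 0.89. Counts of ratios past 2-fold, summed over the classes compared, moved with the CPM limit. A gene is counted once for each class in which it passed. The share of all genes under these other limits is not given here. The counts therefore describe the setting and are not read as a result about the genes. With no limit the 8 genes gave 4 higher at day 7 (main 2), 4 higher at day 21 against intact (1) and 6 lower at day 21 against day 7 (3), and with 50 CPM 1 higher at day 7 and 0 lower at day 21 against day 7. For the other complement genes, with no limit, 19 were lower (main 10) and 22 higher (4) at day 7, 15 lower (7) and 15 higher (4) at day 21 against intact, and 24 lower (3) and 31 higher (16) at day 21 against day 7. With 50 CPM these were 6, 2, 3 lower at day 21 against intact, 1 and 10. Over all annotated cells at day 21 against day 7, 0 were lower with 50 CPM (main 1), and 2 higher with no limit or with one class mixture (main 1). Epineurial shares with C3 without thinning were 72.0%, 46.3% and 26.7% for intact, day 7 and day 21 and with 4000 UMIs 69.2%, 32.0% and 20.6%. For C7 they were 37.4%, 3.25% and 13.0%, and with 4000 UMIs 30.8% in intact nerve and 7.17% at day 21. The counts moved because more or fewer genes pass the limit, and the shares because cells keep more UMIs. No paired analysis was possible because each group is 1 library, and for the same reason no library could be left out. Depth limits C7 outside epineurial cells, Cfb in endoneurial and perineurial cells and C3 in intact perineurial cells, all on 5 or fewer counts in at least 1 library.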

Other observations

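C1q RNA was much higher in some barcodes outside the authors' classes than in the mesenchymal classes. Those with myeloid markers, 250 at day 7 and 162 at day 21, had C1qa at 3996 and 3420 CPM, C1qb at 4717 and 3890 and C1qc at 2478 and 2053, the 3 chains of C1q, which recognises targets for C1r and C1s. C1qa in the 3 layer classes was between 0 and 5.89 CPM in every library. In MES_DIV it was at 4.64 CPM at day 7 and 15.5 at day 21, and C1qb at 8.70 and 19.6. The receptor genes C3ar1 and C5ar1 were at 274 and 192 CPM in these barcodes at day 7 and at 326 and 156 at day 21, and at 0.442 and 0.249 CPM over annotated cells at day 7. The intact library had 3 such barcodes, too few for a level. C1r and C1s RNA, by contrast, was low in the myeloid-marked barcodes, where C1s1 was at 32.8 CPM at day 7, while C4b was at 137 and 89.5 CPM at days 7 and 21.

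Unclassed barcodes with vascular smooth muscle markers, 198 in intact nerve, had C1s1 at 180 CPM (157 to 205) and Serping1 at 189 (166 to 215), against 470.3 and 1063 in endoneurial cells of the same library. C3 there was at 8.87 CPM and C7 at 0 counts.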
